A study of Arabidopsis with 36 samples.

Results

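Aquaporins are the channel proteins through which water and some small uncharged solutes cross plant membranes. The genes described here are the 35 Arabidopsis aquaporins of the PIP, TIP, NIP and SIP classes, taken by gene identifier from the 24532 genes with expression values, with 13 PIP, 10 TIP, 9 NIP and 3 SIP genes. All 35 were found, and their names are written with a hyphen, PIP2-1 being the gene also listed as PIP2;1. Roots and shoots were sampled from 3 genotypes, the wild type Col-0, the mutant hy5-215 of the transcription factor HY5 and the mutant chl1.5 of the nitrate transporter NRT1.1. Seedlings grew for 4 days at 21 °C, and 5 more days followed at the same temperature or at 28 °C, with 3 libraries for each of the 12 combinations of genotype, organ and temperature and 36 in all. Each mutant was represented by 1 allele. The extraction protocol pooled about 50 roots into a replicate, so a root value is an average over all cells of many roots. Here the comparisons ask which aquaporin transcripts follow the temperature in each organ, and whether that response differs when HY5 or NRT1.1 is mutated.

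Plasma membrane intrinsic proteins (PIPs) set much of the water permeability of the cell surface, and in Arabidopsis roots they carry a large part of the water taken up through cells. PIP1 proteins generally need PIP2 partners to reach the plasma membrane. Tonoplast intrinsic proteins (TIPs) let water into and out of the vacuole, whose filling drives cell elongation, and some also pass ammonia or urea. Nodulin 26-like proteins (NIPs) mostly pass metalloids and small organic solutes such as boric acid, arsenite or lactic acid, and small basic intrinsic proteins (SIPs) lie in the endoplasmic reticulum. Levels are RPKM as deposited by the authors, reads scaled by gene length, introns included, and by library total, so levels of different genes are per length of gene span, and a gene with long introns reads lower than per length of its mRNA. Where values of both temperatures stand side by side, those of the 3 libraries at 21 °C come first and those of the 3 at 28 °C second.

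Each library held between 51838841 and 89335791 reads on genes. The 10 top genes made up 3.35% to 4.55% of them in a root library and 8.63% to 11.7% in a shoot library. NRT1.1 checked the chl1.5 label in roots, where it had 0 to 4 reads per library against 70.8 to 78.2 RPKM in Col-0 at 21 °C and 10.3 to 14.3 at 28 °C. The shoots labelled chl1.5 went against their label, since they held 13.5, 13 and 13.8 RPKM of NRT1.1 at 21 °C and 18.8, 19.4 and 18.5 at 28 °C, against 17.6 to 17.9 and 7.19 to 7.53 in Col-0. Therefore they are called the shoots labelled chl1.5 throughout. HY5 was at 7.08 to 8.3 RPKM in hy5-215 roots and 24.1 to 27 in Col-0 roots at 21 °C, but in shoots at 5.49 to 5.96 against 4.67 to 4.99, and at 28 °C at 4.76 to 5.68 against 7.93 to 8.25. It was thus lower than in Col-0 in each hy5-215 group but the shoots at 21 °C, and shoots are called labelled hy5-215. The organ labels held: the summed RPKM of 7 shoot markers lay between 14400 and 23600 in shoots and between 5.2 and 314 in roots, and that of 8 root markers between 173 and 256 in roots and between 18 and 27.5 in shoots.

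Differences are between group means of log2(RPKM + 1), fitted with limma over every gene whose mean reached 1 RPKM over the 18 libraries of an organ, and are given with their standard error. A gene is called at a Benjamini-Hochberg adjusted p under 0.05. Small values are compressed on this scale, so the RPKM of each library is given first. Of the 35 aquaporins, 28 passed the filter in roots and 25 in shoots, and only these could be called. In whole organs, fewer cells of a type and less RNA per cell cannot be told apart. The p-values rest on the spread between samples of the same group, taken over all groups of a fit and moderated across genes. A member therefore has the same standard error in each genotype of an organ. Each root sample is a pool.

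Aquaporins were among the most abundant transcripts of both organs. In Col-0 roots at 21 °C, TIP1-1 (AT2G36830), a vacuolar water channel, reached 1343, 1466 and 1573 RPKM and ranked 6 among all genes, and TIP1-2 (AT3G26520) reached 1087, 1119 and 1213 and ranked 8. PIP1-2 (AT2G45960) followed with 769, 831 and 829. Next came TIP2-2 (AT4G17340) with 693 to 842, PIP2-1 (AT3G53420) with 698 to 774, PIP2-2 (AT2G37170) with 586 to 678 and PIP1-1 (AT3G61430) with 572 to 643, where each neighbour in this order overlapped with the next from PIP1-2 on, except PIP2-1 with PIP2-2. In Col-0 shoots at 21 °C, TIP1-2 was the most abundant with 1097, 1084 and 1147 RPKM, followed by TIP2-1 (AT3G16240), which can also pass ammonia, with 689.9, 686 and 701, and PIP1-2 with 599.6, 598 and 606. These shoot levels did not overlap with each other. PIP2-1 and PIP2-7 (AT4G35100) came next, with 462 to 469 and 412 to 420.1.

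**Figure D1:**
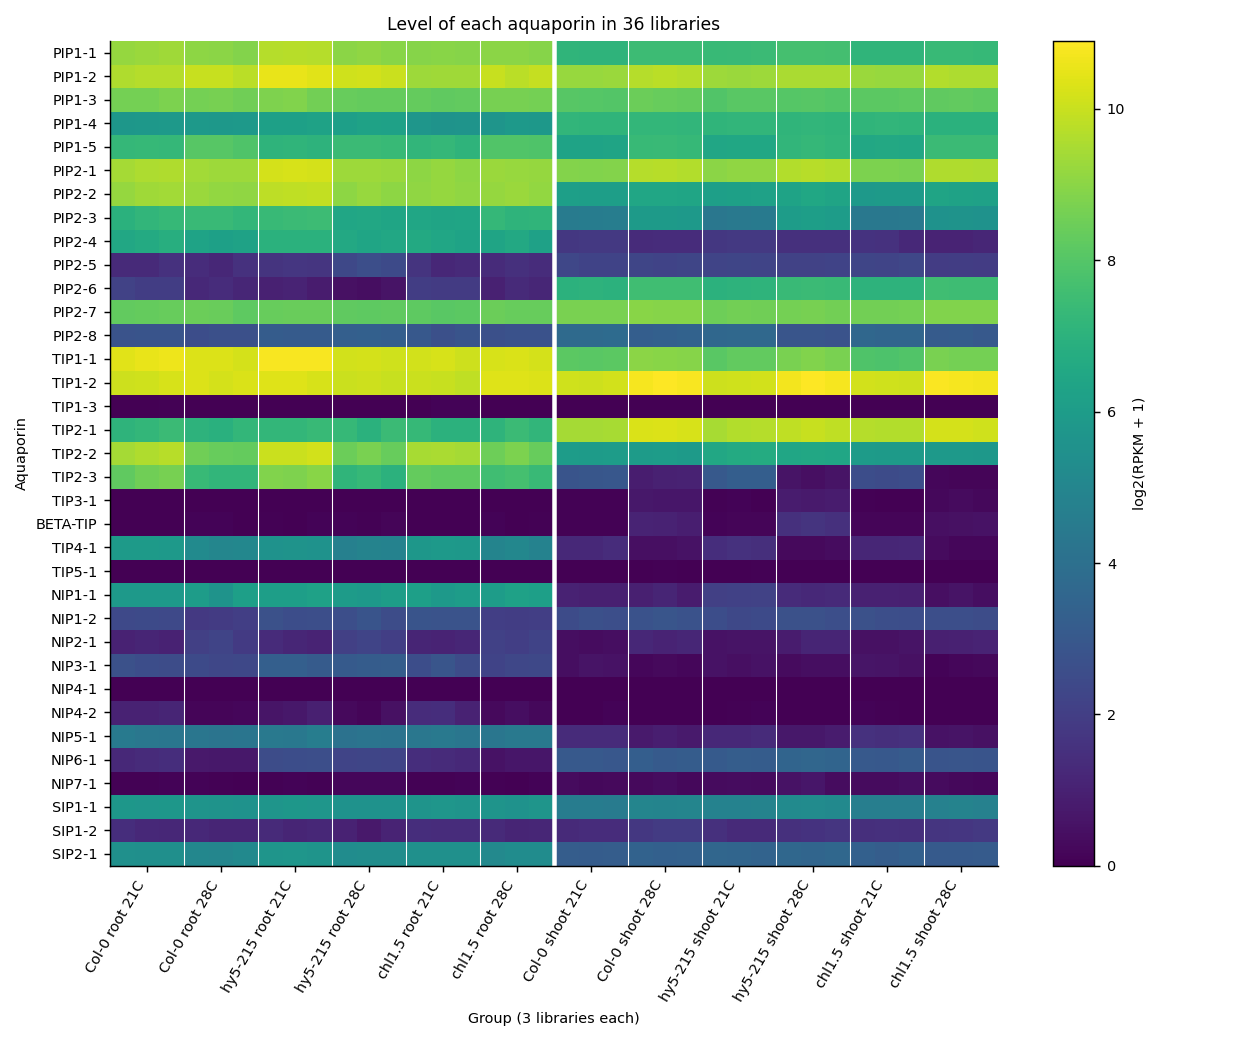
Level of the 35 aquaporins, by row, in the 36 libraries, by column, as log2(RPKM + 1), with 3 libraries for each group and a thick line between roots and shoots. TIP1-2 is bright in both organs, TIP2-1 and PIP2-6 are brighter in shoots, and TIP2-2, TIP2-3, TIP4-1, PIP2-4 and NIP1-1 are brighter in roots.

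Of the members known from pollen, anthers or seeds, 4 did not exceed 0.58 RPKM in any library, and NIP4-2, TIP3-1 and BETA-TIP did so in 1 organ. NIP4-1 (AT5G37810) had no read in any of the 36 libraries, which allows up to 0.02 RPKM in the shallowest. TIP1-3 (AT4G01470), a pollen channel, had 33 reads over the 18 root libraries and none in shoots, where 3 reads would be at most 0.0526 RPKM. TIP5-1 (AT3G47440), also from pollen, had 3 reads in all roots and 12 in all shoots. NIP7-1 (AT3G06100), known from anthers, lay between 0.0221 and 0.141 RPKM in roots and between 0.142 and 0.58 in shoots. TIP3-1 (AT1G73190) and BETA-TIP (AT1G17810), which belong to the protein storage vacuoles of seeds, were below 0.12 RPKM in every root library and are taken up again with the shoots.

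The organs differed in which members they used. In Col-0 at 21 °C, 13 of 28 tested members were over 1 log2 unit higher in roots, against 28.0% of all tested genes, and 4 were over 1 log2 unit higher in shoots, against 14.3%. At 28 °C these counts were 12 and 4, against 24.5% and 14% of all genes. TIP2-3 (AT5G47450), an ammonia-permeable TIP, had 300.4, 368 and 410.1 RPKM in roots and 6.18, 6.64 and 6.67 in shoots at 21 °C, a difference of 5.58 ± 0.086 (limma adjusted p = 6.08e-31). NIP1-1 (AT4G19030), which passes arsenite, PIP2-4 (AT5G60660), a PIP found mostly in roots, and TIP4-1 (AT2G25810) were higher in roots by 4.89, 4.89 and 4.65 log2 units. PIP2-6 (AT2G39010) went the other way, with 3.4, 2.92 and 2.97 RPKM in roots and 128, 129.5 and 128 in shoots and a root minus shoot difference of -4.98 ± 0.061 (limma adjusted p = 2.21e-33). TIP2-1, NIP6-1 (AT1G80760), a boric acid channel of young shoot tissues, and PIP1-4 (AT4G00430) were also over 1 log2 unit higher in shoots, with differences of -2.18, -1.68 and -1.33.

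Organ differences moved with the scaling. At 21 °C 18 members were called higher in roots and 8 in shoots, and 15 and 11 under rescaling by the median of ratios, which takes the median gene as unchanged. With RPKM as deposited, the median over all genes was 0.53 log2 units higher in roots at 21 °C and 0.50 at 28 °C, and that rescaling brought these medians to -0.01 and 0.00. Directions for PIP1-2 at both temperatures and for PIP1-3 (AT1G01620) at 28 °C turned under it, and the calls for PIP1-3 and PIP2-1 at 21 °C were lost. All members named as over 1 log2 unit apart kept their direction.

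Summed over the 35 members, the aquaporin RPKM of Col-0 shoots was 4543 ± 39.4 (SD, n = 3) at 21 °C and 6986 ± 169 at 28 °C, a ratio of 1.54. In shoots labelled hy5-215 the ratio was 1.32 and in those labelled chl1.5 it was 1.42, and in all 3 cases every library at 28 °C lay above every library at 21 °C. Col-0 roots gave 8120.0 ± 527 at 21 °C and 7288 ± 327 at 28 °C, which overlapped. In hy5-215 roots the sum was 10680.0 ± 84.5 at 21 °C and 6917 ± 218 at 28 °C, a ratio of 0.647, and in chl1.5 roots it was 6742 ± 189 and 7354 ± 169, a ratio of 1.09. At 21 °C the 3 hy5-215 root libraries thus had the highest sums of all roots and the 3 chl1.5 libraries the lowest of that temperature, whereas at 28 °C the means of the genotypes lay between 6917 and 7354. In Col-0, TIPs made up 48.6% of the aquaporin RPKM of roots at 21 °C and 43.3% at 28 °C, and 47.4% and 51.6% of that of shoots. As a share of all reads on genes, aquaporins took 1.83% to 1.87% in hy5-215 roots at 21 °C, 1.30% to 1.47% in Col-0 and 1.12% to 1.18% in chl1.5.

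**Figure D2:**
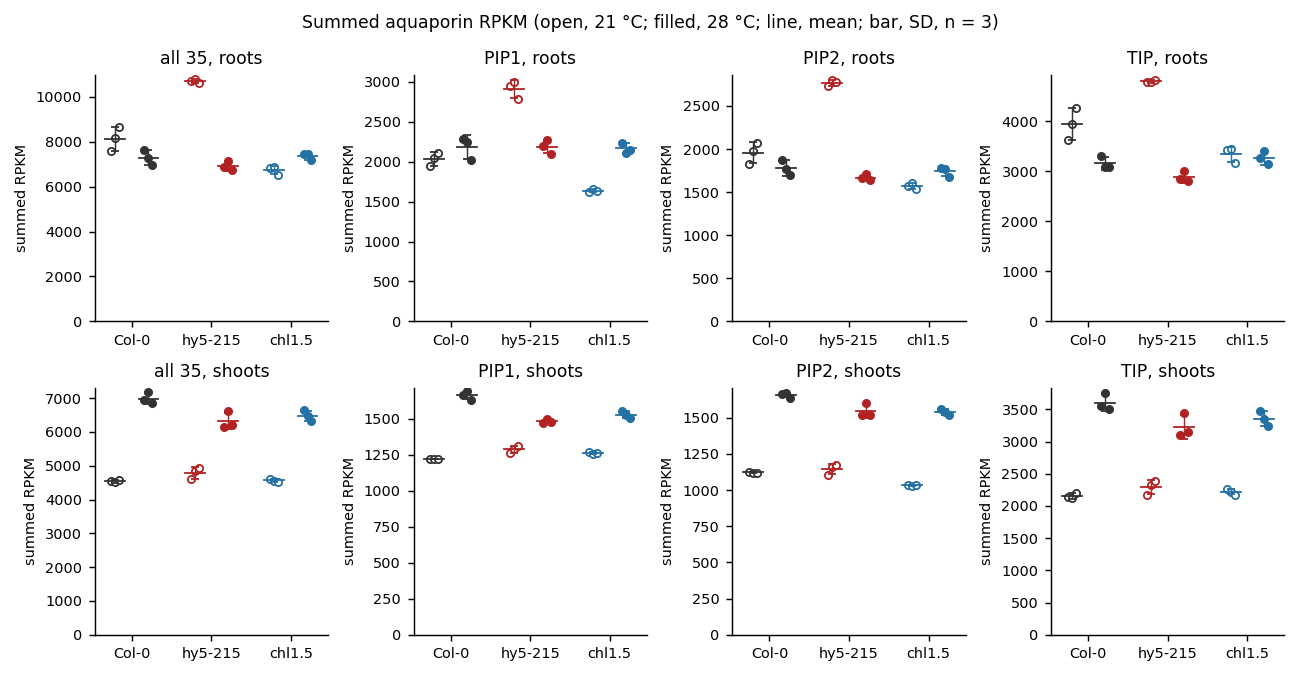
Summed RPKM of all 35 aquaporins and of the PIP1, PIP2 and TIP genes in each library (points), with the mean (line) and SD (bar) of 3 libraries, in roots (top) and shoots (bottom). The hy5-215 roots at 21 °C stand above all other root groups in each panel, and each shoot sum is higher at 28 °C.

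In Col-0 roots, more aquaporins fell than rose with warmth. Of 28 tested members, 15 fell and 4 rose at 28 °C, against 29.2% and 37.0% of all tested genes, and the median member changed by -0.18 while the median gene changed by 0.03. By group, 5 of 8 PIP2, 4 of 6 tested TIP, 3 of 6 tested NIP, 2 of 3 SIP and 1 of 5 PIP1 genes fell, and 2 PIP1, 1 TIP and 1 NIP gene rose. Only TIP2-2 and TIP2-3 changed by over 1 log2 unit on the log2(RPKM + 1) scale, 2 of 28, against 4.23% of all genes. By ratio of means, the low NIP6-1 went to 0.407 of its level at 21 °C, PIP2-6 to 0.457 and NIP2-1 to 2.88 times.

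TIP2-2 and TIP2-3, close relatives in the vacuolar membrane, showed the largest falls of any tested member in Col-0 and hy5-215 roots on the log2(RPKM + 1) scale. TIP2-2 went from 693, 784 and 842 RPKM at 21 °C to 373, 328 and 321 at 28 °C in Col-0, from 1052, 1042 and 1147 to 346, 418 and 326 in hy5-215, and from 706, 739 and 685 to 364, 426 and 331 in chl1.5. The temperatures did not overlap in any genotype, and the differences were -1.18 ± 0.10 (limma adjusted p = 7.22e-08), -1.58 ± 0.10 and -0.93 ± 0.10. TIP2-3 went from 300.4, 368 and 410.1 to 163, 145 and 143 in Col-0, from 449.9, 449 and 494 to 138, 159 and 128 in hy5-215, and from 318, 291 and 292 to 187, 203 and 169 in chl1.5, with differences of -1.24 ± 0.10 (limma adjusted p = 4.84e-08), -1.71 ± 0.10 and -0.69 ± 0.10. Again no libraries overlapped between temperatures. TIP4-1 fell in each genotype as well, with 61.2, 61 and 59, then 35.8, 31.4 and 31.6 RPKM in Col-0, a difference of -0.86 ± 0.056 (limma adjusted p = 3.83e-09).

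Together with these 3 TIPs, PIP2-6, NIP6-1 and SIP2-1 (AT3G56950) fell in roots of all 3 genotypes, 6 of 28 members, against 16.4% of all tested genes. PIP1-5 (AT4G23400) and NIP2-1 (AT2G34390), a lactic acid channel known to be induced by low oxygen, were the 2 members that rose in all of them, against 24.4% of all genes. PIP1-5 had 151, 155 and 151 RPKM at 21 °C and 268, 268 and 239 at 28 °C in Col-0, 137, 139.9 and 131, then 169.8, 172 and 163 in hy5-215, and 142, 153 and 134, then 246, 248 and 236 in chl1.5. The rise was 0.75 ± 0.051 (limma adjusted p = 5.92e-09) in Col-0 and 0.30 ± 0.051 in hy5-215, where the 28 °C libraries lay below those of the other genotypes. NIP2-1 was low, with 1.05 to 1.2 RPKM, or 114 to 138 reads, in Col-0 at 21 °C and 2.61 to 3.77 at 28 °C. Its rise of 0.98 ± 0.091 (limma adjusted p = 1.58e-07) was matched by 0.91 ± 0.091 in hy5-215 and 0.99 ± 0.091 in chl1.5.

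The PIPs that fell in Col-0 roots fell by less than those TIPs on the log2(RPKM + 1) scale, although by ratio of means the low PIP2-6 fell further (to 0.457 of its level at 21 °C) than TIP4-1 (to 0.545). PIP1-1 changed by -0.26 ± 0.057, PIP2-1 by -0.22 ± 0.048, PIP2-4 by -0.42 ± 0.09, PIP2-2 by -0.16 ± 0.061, PIP2-8 by -0.20 ± 0.059 and PIP2-6 by -0.76 ± 0.085. The calls for PIP2-2 and, upward, for TIP1-2 (0.13 ± 0.056) were each lost in 4 of the 6 fits that left out 1 library, with an adjusted p of up to 0.161 and 0.172. NIP3-1 (AT1G31885) changed by -0.22 ± 0.08 and lost its call in 3 of these 6 fits, with an adjusted p of up to 0.115.

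Warmth lowered more members in hy5-215 roots. There 19 of 28 tested members fell and 4 rose, against 24.5% and 36.5% of all genes, with a member median of -0.33 and a gene median of 0.05. Again TIP2-2 and TIP2-3 were the 2 members past 1 log2 unit on the log2(RPKM + 1) scale, against 3.2% of all genes. By ratio of means, the low PIP2-6 went to 0.398 of its level at 21 °C, NIP2-1 to 2.55 and PIP2-5 to 2.07 times. In chl1.5 roots 9 members rose and 9 fell, against 38.3% and 29.1%, with a median of 0.04, the same as that of all genes, and under the median of ratios 7 rose and 11 fell. No member passed 1 log2 unit in chl1.5 roots on that scale, where 5.34% of all genes did. By ratio of means, NIP6-1 went there to 0.341 of its level at 21 °C, PIP2-6 to 0.449 and NIP2-1 to 2.83 times.

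In roots, hy5-215 differed from Col-0 in 20 members at 21 °C and 17 at 28 °C, and chl1.5 in 11 and 1. The difference between these counts was not tested, and over all genes hy5-215 had more calls at 28 °C (9756) than at 21 °C (7737). In hy5-215 roots at 21 °C, 17 of 28 tested members were higher than in Col-0 and 3 were lower, against 24.7% and 18.9% of all genes. For 10 of the 28 members, all 3 of these libraries lay above the other 15 root libraries, which held for 5.12% of all tested genes. The 10 were PIP1-1, PIP1-2, PIP2-1, PIP2-2, PIP2-4, TIP1-1, TIP2-2, TIP2-3, NIP6-1 and SIP2-1. In chl1.5 roots at 21 °C, 10 of 28 members were lower than in Col-0 and 1 was higher, against 11.7% and 16.6%. The 10 lower members were 4 of 5 PIP1 genes, 4 of 8 PIP2 genes, TIP1-1 and TIP1-2, and the higher one was NIP1-2 (AT4G18910), at 5.83 to 6.07 against 4.26 to 4.38 RPKM. Both mutants were compared with the same Col-0 libraries, so these counts are not independent. Without Col-0 replicate 3, or without chl1.5 replicate 3, 7 members were called in chl1.5 in place of 11.

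PIP2-1, an abundant water channel of root and guard cells, gives the pattern per library. In Col-0 roots it had 698, 758 and 774 RPKM at 21 °C and 663, 629.7 and 625 at 28 °C. In hy5-215 it had 1189, 1223 and 1161 at 21 °C and 638, 636 and 620.2 at 28 °C, and in chl1.5 527, 578 and 533, then 611, 593 and 579. At 21 °C the hy5-215 libraries stood above, and the chl1.5 libraries below, all others, with differences from Col-0 of 0.68 ± 0.048 (limma adjusted p = 1.15e-08) and -0.44 ± 0.048 (limma adjusted p = 1.52e-05). At 28 °C the differences were -0.02 ± 0.048 and -0.11 ± 0.048, and neither was called.

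PIP1-2, which also conducts CO2, had 1025, 1004 and 879.5 RPKM in Col-0 roots at 28 °C, beside the 21 °C values given above. It had 1478, 1469 and 1364 in hy5-215 at 21 °C and 1111, 1140.0 and 1040.0 at 28 °C, and 633, 651 and 653, then 1013, 879.7 and 972 in chl1.5. It thus rose in Col-0 (0.26 ± 0.065) and chl1.5 (0.56 ± 0.065) and fell in hy5-215 (-0.39 ± 0.065). At 21 °C it was 0.83 ± 0.065 (limma adjusted p = 4.23e-08) above Col-0 in hy5-215. PIP1-1 had 572, 607 and 643 at 21 °C and 534, 519 and 467 at 28 °C in Col-0, 826, 857 and 822, then 510.0, 553 and 497 in hy5-215, and 478, 503 and 482, then 520.4, 518 and 488 in chl1.5. The hy5-215 libraries at 21 °C stood highest, the Col-0 libraries at 21 °C came next, and the other 4 groups overlapped.

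PIP2-2 and PIP2-3 (AT2G37180), the latter known as RD28 from desiccated plants, are neighbours on chromosome 2, at 15613368 to 15615022 and 15617635 to 15619155 in TAIR10.1, 2612 bases apart with no gene between them. They are close copies, and how reads that match both were counted is not given in the sources used here. PIP2-2 had 586, 643 and 678 RPKM at 21 °C and 609, 555 and 544 at 28 °C in Col-0, 912, 921 and 965, then 529.8, 591 and 525 in hy5-215, and 549.8, 571 and 547, then 575, 605 and 553 in chl1.5. Its hy5-215 libraries at 21 °C were above all others. PIP2-3 had 123, 144 and 159, then 165, 167 and 148 in Col-0, 163, 170.1 and 177, then 87.3, 93.2 and 85 in hy5-215, and 87.7, 82 and 83.4, then 152, 134 and 139 in chl1.5. For PIP2-3 the low groups were hy5-215 at 28 °C and chl1.5 at 21 °C, which lay below all other groups.

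TIP1-1 and TIP1-2 had the same order of means at 21 °C, hy5-215 highest and chl1.5 lowest. TIP1-1 had 1297, 1266 and 1179 RPKM in Col-0 roots at 28 °C, 1755, 1775 and 1784, then 1129, 1179 and 1115 in hy5-215 at 21 °C and 28 °C, and 1153, 1210.0 and 1069, then 1226, 1233 and 1177 in chl1.5. At 21 °C it was 0.28 ± 0.059 above Col-0 in hy5-215 and differed by -0.35 ± 0.059 in chl1.5. TIP1-2 had 1298, 1189 and 1262 in Col-0 at 28 °C, 1331, 1312 and 1193, then 1041, 1089 and 1028 in hy5-215, and 1030.0, 1013 and 941, then 1310.0, 1333 and 1290.0 in chl1.5. Its libraries overlapped between hy5-215 and Col-0 at 21 °C, and its difference there, 0.17 ± 0.056, lost its call in 4 of 6 fits without a library and under rescaling by the median of ratios.

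**Figure D3:**
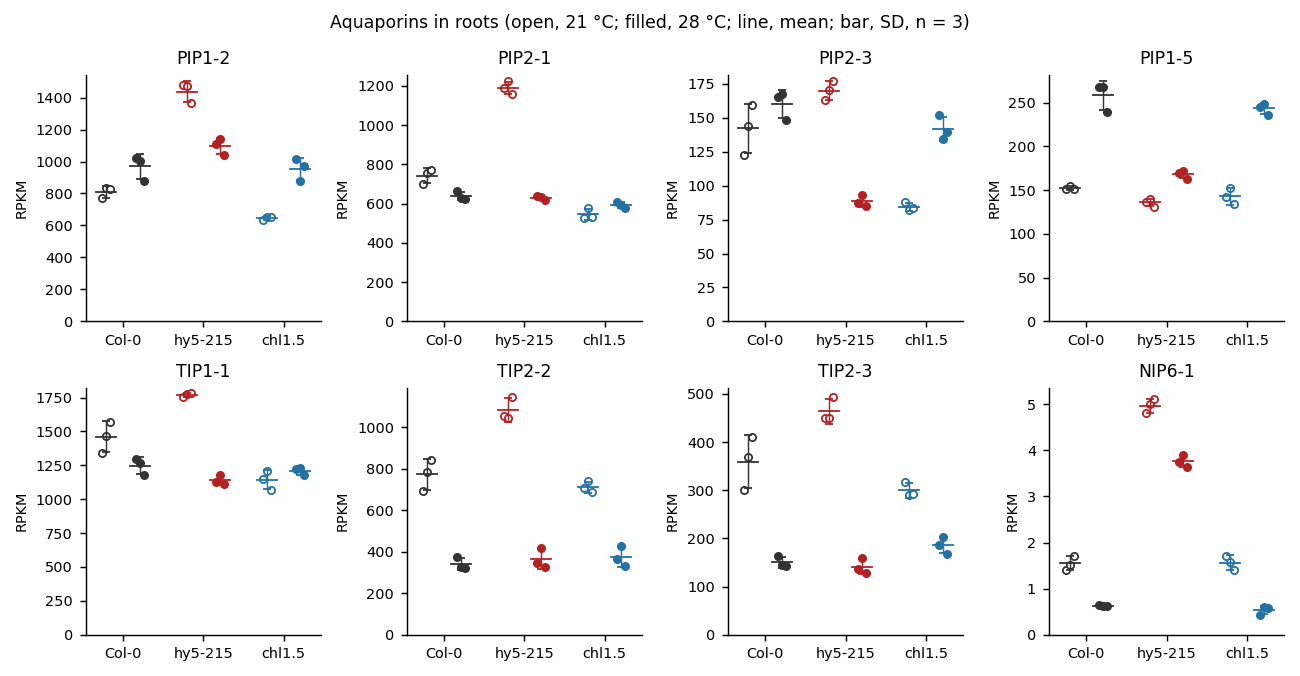
RPKM of 8 aquaporins in each root library (points; open at 21 °C, filled at 28 °C), with the mean (line) and SD (bar) of 3 libraries. PIP1-2, PIP2-1, TIP1-1, TIP2-2, TIP2-3 and NIP6-1 are highest in hy5-215 at 21 °C, and PIP2-3 is lowest in chl1.5 at 21 °C and hy5-215 at 28 °C.

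The test of the difference in warm response put these patterns side by side. In roots, the response of hy5-215 differed from that of Col-0 for 14 of 28 members, 10 with a lower and 4 with a higher response, against 10.4% and 9.95% of all genes. The 10 were 4 of 5 PIP1 genes, 3 of 8 PIP2 genes, TIP1-1, TIP1-2 and TIP2-3. Largest was PIP2-3, at -1.11 ± 0.11 (limma adjusted p = 8.02e-06), followed by PIP2-1 at -0.70 ± 0.068 (limma adjusted p = 7.17e-06), PIP1-2 at -0.65 ± 0.091 and PIP2-2 at -0.61 ± 0.087. For TIP2-3 the value of -0.47 ± 0.15 lost its call in 5 of 12 fits without a library, and TIP2-2, at -0.40 ± 0.14, was not called. In chl1.5 the response differed from Col-0 for 4 members, all PIPs and all higher, against 0.975% of all genes higher and 1.38% lower. They were PIP2-3 at 0.56 ± 0.11 (limma adjusted p = 0.0132), PIP1-3 at 0.43 ± 0.078 (limma adjusted p = 0.0092), PIP2-1 at 0.34 ± 0.068 and PIP1-1 at 0.32 ± 0.081, and the last lost its call in 10 of 12 fits without a library.

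PIP1-3 had 394, 392 and 428 RPKM at 21 °C and 396, 401 and 372 at 28 °C in Col-0 roots, 439.7, 452 and 385, then 332, 323 and 323 in hy5-215, and 321, 298 and 314, then 402, 406 and 399 in chl1.5. The low groups were thus again hy5-215 at 28 °C and chl1.5 at 21 °C, whose libraries lay under those of the other 4 groups.

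At 28 °C, 9 of 28 members were higher and 8 lower in hy5-215 roots than in Col-0, against 32.2% and 22.8% of all genes, and 7 and 10 under the median of ratios. In chl1.5 roots at 28 °C the counts were 1 and 0, against 6.68% and 2.75%. That 1 was SIP2-1, with 0.16 ± 0.047, and it lost its call in 4 of 6 fits without a library and under rescaling by the median of ratios.

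A group of low members kept a difference between hy5-215 and Col-0 roots at both temperatures. More abundant members did too, with PIP1-2, PIP1-4, PIP2-4 and SIP2-1 higher and PIP1-5 and TIP4-1 lower in hy5-215. Under the median of ratios, 1 PIP1 gene was called higher at 28 °C in place of 2. NIP6-1 had 1.42, 1.52 and 1.71 RPKM at 21 °C and 0.652, 0.627 and 0.615 at 28 °C in Col-0, 4.8, 5 and 5.11, then 3.74, 3.9 and 3.64 in hy5-215, and 1.72, 1.57 and 1.4, then 0.43, 0.597 and 0.572 in chl1.5. All hy5-215 libraries were above all others, by 1.23 ± 0.058 (limma adjusted p = 9.55e-11) at 21 °C and 1.55 ± 0.058 (limma adjusted p = 3.52e-12) at 28 °C. PIP2-5 (AT3G54820), known to rise under drought, had 1.48, 1.48 and 1.92, then 1.58, 1.33 and 1.91 in Col-0, 2.11, 2.27 and 2.21, then 4.15, 5.07 and 4.45 in hy5-215, and 2.11, 1.35 and 1.48, then 1.54, 1.86 and 1.58 in chl1.5. Its 3 libraries of hy5-215 at 28 °C stood above the other 15, and its response differed from that of Col-0 by 0.81 ± 0.15 (limma adjusted p = 0.00141).

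PIP2-8 (AT2G16850) showed the same order at a smaller size, with 6, 6.06 and 6.22 RPKM at 21 °C and 4.92, 5.41 and 5.26 at 28 °C in Col-0, 7.97, 7.8 and 7.7, then 8.76, 9.15 and 8.62 in hy5-215, and 6.94, 5.39 and 6.18, then 5.33, 5.67 and 5.72 in chl1.5. NIP1-2, which passes arsenite, had 4.26, 4.38 and 4.33, then 2.47, 2.69 and 3.09 in Col-0, 5.59, 4.95 and 5.11, then 5.09, 6.09 and 4.82 in hy5-215, and 6.07, 5.83 and 5.86, then 3.02, 2.94 and 3.11 in chl1.5. It fell in Col-0 and chl1.5 and did not pass the test in hy5-215, and its response differed between hy5-215 and Col-0 by 0.53 ± 0.096 (limma adjusted p = 0.0013). PIP2-6 went the opposite way in level, with 3.4, 2.92 and 2.97, then 1.37, 1.65 and 1.23 in Col-0, 1.02, 1.11 and 0.799, then 0.386, 0.304 and 0.478 in hy5-215, and 2.92, 2.72 and 2.74, then 1.03, 1.48 and 1.25 in chl1.5. It was lower in hy5-215 than in Col-0 at both temperatures, with a difference of -1.05 ± 0.085 (limma adjusted p = 5.84e-08) at 21 °C. PIP2-6 was mostly a shoot transcript. The summed RPKM of the 7 shoot markers was 49.8 to 63 in Col-0 roots at 21 °C, 228 to 314 at 28 °C, and 5.2 to 16.4 over all hy5-215 roots. Of the 7 markers, only RBCS1A and LHCA1 reached the filter in roots. FAMA had no reads in any root group but Col-0 at 21 °C. In Col-0 roots the marker sum was thus higher at 28 °C, where PIP2-6 was lower. It was lower in hy5-215 roots than in Col-0 roots, as PIP2-6 was. The part of shoot tissue or of these markers in the genotype difference was not tested.

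PIP2-4 had 91, 102 and 114, then 79, 72.6 and 76 RPKM in Col-0 roots, 122, 125 and 125, then 93.3, 84.7 and 91.1 in hy5-215, and 97.2, 85.5 and 78.9, then 82.6, 95.9 and 74.6 in chl1.5. It was higher in hy5-215 than in Col-0 by 0.28 ± 0.09 at 21 °C and 0.24 ± 0.09 at 28 °C.

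The remaining root members are given more briefly. PIP1-4 was higher in hy5-215 at both temperatures (0.39 ± 0.05 and 0.38 ± 0.05), and NIP3-1 likewise (0.62 ± 0.08 and 0.76 ± 0.08). TIP4-1 was lower there at both (-0.37 ± 0.056 and -0.26 ± 0.056). TIP2-1 and NIP1-1 passed no test in roots, where they lay between 121 and 172 RPKM and between 48.1 and 75.5 RPKM over all 18 libraries. PIP2-7 rose in chl1.5 (0.22 ± 0.052) and fell in hy5-215 (-0.19 ± 0.052), with 0.03 ± 0.052 in Col-0, not called. NIP5-1 (AT4G10380), the boric acid channel of root uptake, fell in hy5-215 (-0.33 ± 0.061) and did not pass the test in Col-0 (-0.14 ± 0.061) or chl1.5 (0.03 ± 0.061). SIP1-1 (AT3G04090) lay between 45.9 and 53.6 RPKM over all 18 root libraries, SIP2-1 had 41.8 to 44 at 21 °C and 31.5 to 35.1 at 28 °C in Col-0, and SIP1-2 (AT5G18290) was below 1.7 RPKM in all roots. NIP4-2 (AT5G37820), known from pollen, was under the filter in roots, but it had 119 to 161 reads per library at 21 °C and 10 to 15 at 28 °C in Col-0. Its levels were 1.03, 1.04 and 1.19, then 0.0973, 0.123 and 0.142 RPKM, and the difference was -0.90 ± 0.10 (limma adjusted p = 4.91e-06 in the fit without the filter).

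Markers of some root cell types differed between temperatures. The summed RPKM of 6 endodermis markers had a mean of 285 at 21 °C and 213 at 28 °C in Col-0 roots. Over its 3 libraries it was 279 to 303, then 191 to 198 in hy5-215, and 291 to 311, then 223 to 225 in chl1.5. That of 4 root hair markers was 78.4 to 93 at 21 °C and 57.3 to 75.2 at 28 °C in Col-0, and that of 3 meristem markers 13.2 to 14.6 and 13.3 to 14.1, which overlapped. The meristem sum was 14.6 to 15.2 and 16.3 to 16.8 in hy5-215, and 13.2 to 13.6 and 12.9 to 14.4 in chl1.5. In hy5-215 PLT1 and PLT2 rose and the other meristem marker fell, and all 3 were higher than in Col-0 at 28 °C. The summed RPKM of 3 root cap markers was 14 to 14.7 and 15.3 to 15.8 in Col-0, 14.6 to 15.9 and 13.8 to 14.4 in hy5-215, and 13.3 to 14.6 and 15.7 to 16.6 in chl1.5. Of the endodermis markers, CASP5 rose in Col-0 (0.54 ± 0.14) and the other 5 fell. At 21 °C the endodermis sums of the genotypes overlapped, and the root hair sum of hy5-215 was 66.7 to 77.1, below that of Col-0. The part of these cell types in the aquaporin changes was not tested.

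In shoots, most aquaporins rose with warmth. Of 25 tested members in Col-0, 18 rose and 4 fell, against 46.2% and 30.7% of all genes, and the median member changed by 0.32 while the median gene changed by 0.08. All 5 PIP1 genes rose, although PIP1-4 (0.05 ± 0.02) turned to -0.03 under the median of ratios. Of the others, 5 of 8 PIP2, 3 of 5 tested TIP, 2 of 4 tested NIP and all 3 SIP genes rose. In shoots labelled hy5-215, 15 rose and 7 fell, against 46.8% and 30.4%, and in those labelled chl1.5, 13 rose and 10 fell, against 49.9% and 28.4%. On the log2(RPKM + 1) scale, 3 of 25 members changed by over 1 log2 unit in Col-0 shoots. In those labelled hy5-215 and chl1.5 these counts were 2 and 3. Over all genes the shares were 5.24%, 6.15% and 4.74%. The last 3 members included NIP5-1 (-1.0 in the fit without the filter). NIP5-1 and NIP1-1 stand in the counts of 25 here and below, but passed the filter only through 1 group each. These were the shoots at 21 °C labelled chl1.5 for NIP5-1 and hy5-215 for NIP1-1. Across the 3 labels, 13 of 25 members rose in each and 4, NIP5-1 included, fell in each, against 32.4% and 17.8% of all genes.

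Among the members that passed the filter, PIP2-3 rose most. It had 22.3, 23 and 23.4 RPKM at 21 °C and 59.6, 60.7 and 59.3 at 28 °C in Col-0 shoots, 18.9, 20 and 20.8, then 63.9, 68 and 64.5 in those labelled hy5-215, and 19.8, 19.6 and 20.3, then 46.8, 47.2 and 46.3 in those labelled chl1.5. The differences were 1.35 ± 0.032 (limma adjusted p = 1.35e-16), 1.67 ± 0.032 and 1.19 ± 0.032, whereas its neighbour PIP2-2 rose by 0.32 ± 0.038 in Col-0, with 68.4 to 70, then 84.1 to 87.8. PIP1-5 had 78, 79.5 and 80.7, then 161, 167 and 156 in Col-0, 86, 88.9 and 88.7, then 145, 151 and 143 for hy5-215, and 92.9, 94 and 92.1, then 171, 173 and 171 for chl1.5. PIP1-5 therefore rose with warmth in both organs under every label, by 1.02 ± 0.025 (limma adjusted p = 2.98e-16) in Col-0 shoots.

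The abundant members rose as well. TIP1-2, the highest of all, went from the values given above to 1749, 1912 and 1761 RPKM in Col-0 at 28 °C, from 1080.0, 1120.0 and 1146 to 1685, 1881 and 1713 in shoots labelled hy5-215, and from 1128, 1123 and 1065 to 1823, 1729 and 1682 in those labelled chl1.5. Its differences were 0.70 ± 0.044, 0.66 ± 0.044 and 0.66 ± 0.044, and the responses of the mutant labels differed from that of Col-0 by -0.05 ± 0.063 and -0.04 ± 0.063, which did not pass the test. TIP2-1 reached 1232, 1273 and 1202 in Col-0 at 28 °C, and had 714, 788 and 814, then 914, 1009 and 929 in shoots labelled hy5-215 and 825, 802 and 804, then 1179, 1160.0 and 1122 in those labelled chl1.5. Col-0 was thus lowest at 21 °C and highest at 28 °C. PIP2-1 had 467, 462 and 469, then 818, 841 and 810.4 in Col-0, a difference of 0.82 ± 0.026 (limma adjusted p = 7.62e-15). TIP1-1 had 282, 279 and 281, then 507, 502 and 485, a difference of 0.83 ± 0.041 (limma adjusted p = 4.53e-12).

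A few members fell against this trend, and TIP2-3 fell furthest. It had 6.18, 6.64 and 6.67 RPKM at 21 °C and 0.835, 1.01 and 1.07 at 28 °C in Col-0, 7.24, 8.62 and 8.64, then 0.471, 0.379 and 0.487 in shoots labelled hy5-215, and 4.96, 4.66 and 4.95, then 0.134, 0.101 and 0.109 in those labelled chl1.5. In the last group this was 418 to 497 reads against 10 to 12. The mean RPKM there was 42.3 times higher at 21 °C, compared with 6.69 times in Col-0 and 18.3 times in shoots labelled hy5-215. On the log2 scale used here, which compresses values this low, the differences were -1.93 ± 0.059 (limma adjusted p = 4.85e-15), -2.66 ± 0.059 and -2.39 ± 0.059. NIP5-1 fell under every label, with 1.52, 1.55 and 1.57, then 0.735, 0.885 and 0.715 in Col-0, a difference of -0.52 ± 0.047. It passed the filter only through the shoots labelled chl1.5 at 21 °C, without which its mean was 0.974 RPKM, and the fit without the filter gave the same difference in Col-0 (-0.52 ± 0.042). In shoots labelled chl1.5 it had 1.95, 1.8 and 1.9, then 0.425, 0.469 and 0.425. PIP2-8 and PIP2-4 also fell under all 3 labels. In Col-0 PIP2-8 had 12.6 to 12.8, then 8.57 to 9.61, and PIP2-4 had 2.4 to 2.51, then 1.56 to 1.6, differences of -0.45 ± 0.041 and -0.42 ± 0.061.

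The other PIPs and NIPs of shoots moved by smaller amounts. PIP2-6, the PIP that marked shoots, had 128, 129.5 and 128, then 187, 188 and 188 in Col-0, a rise of 0.54 ± 0.023 (limma adjusted p = 5.76e-13), and 164 to 173 and 181 to 186 at 28 °C in the shoots labelled hy5-215 and chl1.5. PIP2-7 had 420.1, 419 and 412, then 498, 478 and 482 in Col-0 and rose by 0.22 ± 0.026. PIP1-1 rose by 0.36 ± 0.021, from a mean of 137 ± 1.51 to one of 176 ± 2.39 RPKM. NIP1-2 rose by 0.20 ± 0.056 in Col-0, with 4.6 to 5.34, then 5.66 to 6.27, and in shoots labelled chl1.5 its difference of -0.04 ± 0.056 did not pass the test. PIP2-5 had 3.54 to 4.01, then 3.63 to 3.86 in Col-0, where its difference of 0.02 ± 0.039 did not pass the test, and it fell in shoots labelled hy5-215 (-0.11 ± 0.039) and chl1.5 (-0.32 ± 0.039). SIP1-2 had 1.49 to 1.64, then 2.42 to 2.73 in Col-0 and rose by 0.49 ± 0.056.

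TIP2-3, NIP5-1 and PIP2-4 were mostly root transcripts, and the summed levels of root markers were lower in warm Col-0 shoots as well. The summed RPKM of 8 root markers was 20.8 to 21.5 in Col-0 shoots at 21 °C and 18 to 18.7 at 28 °C, that of 6 endodermis markers 9.4 to 9.94 and 6.95 to 7.53, and that of 4 root hair markers 1.43 to 1.56 and 0.672 to 0.816. In shoots labelled chl1.5 the endodermis sum was 10.3 to 10.7 at 21 °C and 4.02 to 4.31 at 28 °C. The sum of the 8 root markers was 18.9 to 19.5 and 18.1 to 18.7 there. Of these 8, only 2 were tested in shoots, CASP1 and SCR. CASP1 fell under every label, whereas SCR fell in Col-0 and rose in shoots labelled hy5-215 and chl1.5. The part of these markers in the falls of these aquaporins was not tested.

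Warmth also raised 2 seed members that are all but absent at 21 °C. BETA-TIP had 0.0516, 0.0456 and 0.0469 RPKM in Col-0 shoots at 21 °C, which is 6 to 7 reads, and 1.15, 1.07 and 0.908 at 28 °C, which is 89 to 135 reads. In shoots labelled hy5-215 it went from 0.0866, 0.111 and 0.108 to 1.86, 2.09 and 1.84, and in those labelled chl1.5 from 0.094, 0.111 and 0.101 to 0.374, 0.398 and 0.444. The 28 °C libraries were above those at 21 °C under each label, highest for hy5-215 and lowest for chl1.5. TIP3-1 went from 0.0595, 0.0527 and 0.0361 to 0.649, 0.596 and 0.601 in Col-0, from 0.03, 0.0888 and 0.0288 to 0.752, 0.722 and 0.796 for hy5-215, and from 0.0592, 0.0213 and 0.0234 to 0.177, 0.26 and 0.189 for chl1.5. Both lay under the filter, so their tests come from the fit without it and were looked at because of these values. The rise in Col-0 was 0.96 ± 0.037 (limma adjusted p = 3.74e-12 in the fit without the filter) for BETA-TIP and 0.62 ± 0.028 (limma adjusted p = 2.17e-11 in the fit without the filter) for TIP3-1.

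Other members under the filter in shoots were TIP4-1, NIP2-1, NIP3-1 and NIP4-2. TIP4-1 had 1.4, 1.39 and 1.58 RPKM at 21 °C and 0.351, 0.357 and 0.43 at 28 °C in Col-0, and NIP2-1 had 0.338, 0.276 and 0.317, then 1.29, 1.09 and 1.23. Without the filter the differences were -0.83 ± 0.044 (limma adjusted p = 1.41e-10 in the fit without the filter) and 0.75 ± 0.065 (limma adjusted p = 5.21e-08 in the fit without the filter), so TIP4-1 fell and NIP2-1 rose in Col-0 shoots, as they did in Col-0 roots. NIP3-1 lay between 0.0877 and 0.523 RPKM in all shoots, and NIP4-2 did not exceed 0.0706. In the fit without the filter NIP3-1 was lower at 28 °C under every label. Its differences were -0.27 ± 0.045 in Col-0, -0.12 ± 0.045 for hy5-215 and -0.36 ± 0.045 for chl1.5.

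**Figure D4:**
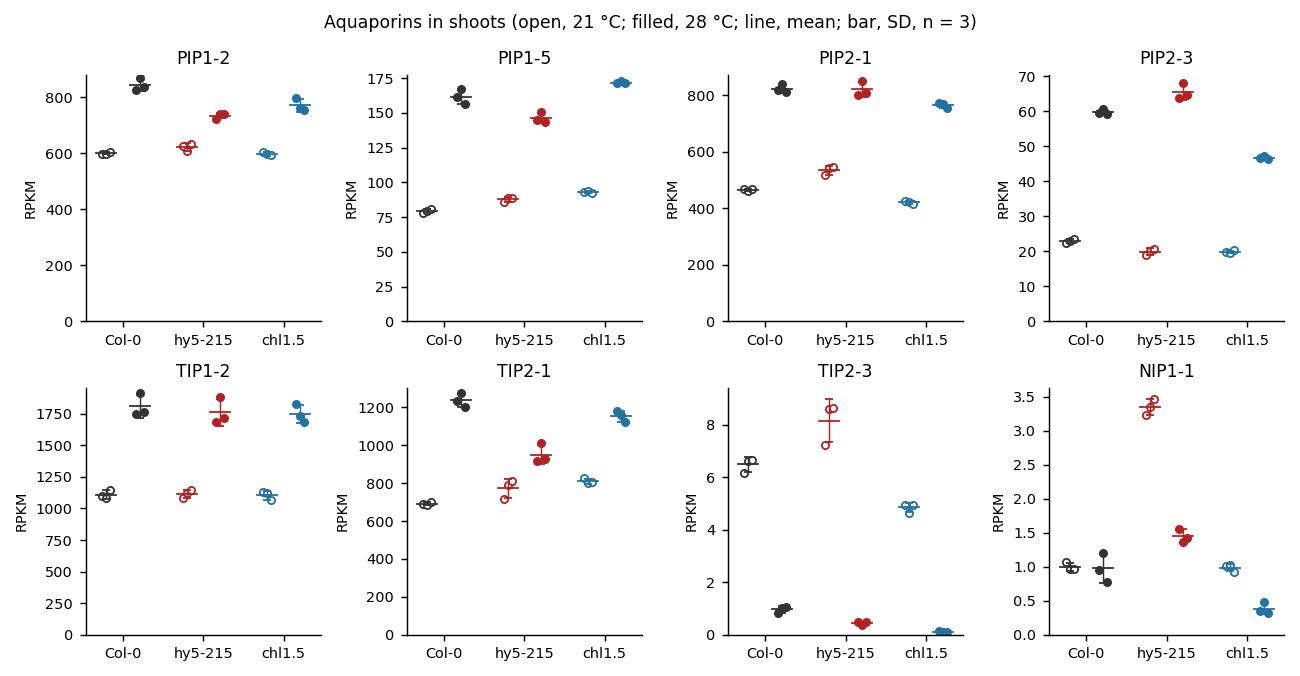
RPKM of 8 aquaporins in each shoot library (points; open at 21 °C, filled at 28 °C), with the mean (line) and SD (bar) of 3 libraries for each label. All but TIP2-3 and NIP1-1 are higher at 28 °C, and NIP1-1 is highest in shoots labelled hy5-215 at 21 °C.

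Where the warm response of shoots with a mutant label differed from that of Col-0, it was mostly lower. In shoots labelled hy5-215 it differed from Col-0 for 17 of 25 members, with a lower value for 15 and a higher one for 2, against 22.8% and 27.4% of all genes. Under the median of ratios 11 were lower and 2 higher. In shoots labelled chl1.5 it was lower for 16 and higher for 0 of 25, against 25.8% and 30.5%. NIP1-1 is among the lower members for both labels and NIP5-1 for chl1.5, and each passed the filter only through 1 group. The Col-0 libraries are shared by both. All 5 PIP1 genes were among the lower ones, with -0.41 to -0.08 for hy5-215, where 3 remained called under the median of ratios, and -0.29 to -0.12 for chl1.5. For 7 of 25 members, namely PIP1-2, PIP1-3, PIP2-6, PIP2-7, TIP1-1, TIP2-1 and NIP1-2, all 3 Col-0 libraries at 28 °C lay above the other 15 shoot libraries, which held for 3.47% of all genes.

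Most of these differences were under 0.5 log2 units. Past that in shoots labelled hy5-215 were TIP2-3 at -0.73 ± 0.083 (limma adjusted p = 1.59e-06) and TIP2-1 at -0.53 ± 0.059 (limma adjusted p = 1.25e-06). NIP1-1, which passed the filter only through its libraries of hy5-215 at 21 °C, is described with the levels. PIP1-2 had 828 to 868 RPKM in Col-0 at 28 °C, 723 to 741 for hy5-215 and 755 to 797 for chl1.5, while at 21 °C the groups lay between 593 and 635. PIP1-3 rose in Col-0, with 264, 262 and 256, then 349, 334 and 322, and its values of 248, 277 and 275, then 256, 264 and 251 for hy5-215 overlapped between temperatures. PIP2-3 was the exception among the PIPs, with a larger rise in shoots labelled hy5-215 (0.32 ± 0.045).

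Of the boric acid channels NIP6-1 and NIP5-1, the first had a lower response in shoots labelled chl1.5 than in Col-0. NIP6-1 had 7.34, 7.19 and 6.88 RPKM at 21 °C and 8.62, 7.38 and 7.99 at 28 °C in Col-0, 7.57, 8.27 and 7.99, then 10.4, 11.2 and 10.5 for hy5-215, and 7.33, 7.04 and 7.88, then 6.13, 6.24 and 6.04 for chl1.5. Its response differed from Col-0 by 0.24 ± 0.068 in shoots labelled hy5-215 and -0.38 ± 0.068 in those labelled chl1.5. NIP5-1 passed the filter only through the latter at 21 °C, so its tests are taken from the fit without the filter. There its response differed from Col-0 by -0.01 ± 0.059, not called, for hy5-215 and -0.48 ± 0.059 (limma adjusted p = 9.31e-06) for chl1.5. The second value includes the group through which it passed. SIP2-1 rose in Col-0, with 8.31, 8.03 and 8.21, then 9.79, 9.17 and 9.34, and fell for chl1.5, with 9.18, 8.22 and 9.21, then 7.56, 7.48 and 7.73. SIP1-1 rose under every label, by 0.38 ± 0.027 in Col-0.

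At 21 °C, 10 of 25 members were higher and 3 lower in shoots labelled hy5-215 than in Col-0, against 25.7% and 34.6% of all genes. At 28 °C, 7 were higher and 12 lower, against 25.8% and 30.4%. In shoots labelled chl1.5 the counts were 6 and 8 at 21 °C, against 20.6% and 27.9%, and 1 and 20 at 28 °C, against 23.8% and 23.9%. The only member past 1 log2 unit was NIP1-1, which had 3.24, 3.35 and 3.48 RPKM in shoots labelled hy5-215 and 1.06, 0.969 and 0.965 in Col-0 at 21 °C, a difference of 1.12 log2 units. It passed the filter in shoots only through this group, since the other 15 libraries averaged 0.96 RPKM, so its tests are taken from the fit without the filter, where this difference was 1.12 ± 0.062 (limma adjusted p = 1.61e-09) and that in warm response from Col-0 was -0.81 ± 0.087 (limma adjusted p = 3.04e-06). At 28 °C it had 1.56, 1.37 and 1.43 for hy5-215, 0.948, 1.2 and 0.782 in Col-0 and 0.356, 0.475 and 0.327 for chl1.5. TIP2-2 was higher for hy5-215 at both temperatures, with 91.8 to 104 against 62.6 to 63.6 at 21 °C (0.64 ± 0.039). NIP1-1 and TIP2-2 were mostly root transcripts, and the summed RPKM of the 8 root markers at 21 °C was 25.4 to 27.5 in shoots labelled hy5-215 and 20.8 to 21.5 in Col-0, and that of the 6 endodermis markers 20.1 to 22.5 and 9.4 to 9.94. Of the 8 root markers only 2 were tested in shoots, and CASP1 was higher and SCR lower for hy5-215 at 21 °C. The 3 tested endodermis markers, CASP1 among them, were all higher. The part of these markers was not tested.

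Roots and shoots of Col-0 thus answered the same warmth in different ways, and the difference itself was tested over all 36 libraries. The response was lower in roots than in shoots for 18 of 28 members and higher for 3, against 32.4% and 28.9% of all genes. Largest in size was PIP2-6 at -1.31 ± 0.087 (limma adjusted p = 2.62e-13), followed by PIP2-3 (-1.17 ± 0.086), TIP2-2 (-1.16 ± 0.11), TIP1-1 (-1.05 ± 0.073), PIP2-1 (-1.04 ± 0.055) and TIP2-1 (-1.03 ± 0.14). Of the 25 members tested in both organs, 9 fell in Col-0 roots and rose in Col-0 shoots, among them PIP1-1, PIP2-1, PIP2-2, PIP2-6, TIP1-1 and SIP1-1, and 0 did the reverse, against 7.23% and 5.27% of the genes tested in both. The root call of PIP2-2 among them was lost in 4 of 6 fits without a library, as said above. PIP1-2, PIP1-5 and TIP1-2 rose in both organs, against 25.8% of these genes, although the root call of TIP1-2 was also lost under the median of ratios (limma adjusted p = 0.154). PIP2-4, PIP2-8 and TIP2-3 fell in both, against 14.3%. The 3 members with the higher response in roots were PIP2-8, TIP2-3 and NIP5-1, whose falls were larger in shoots on this scale.

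**Figure D5:**
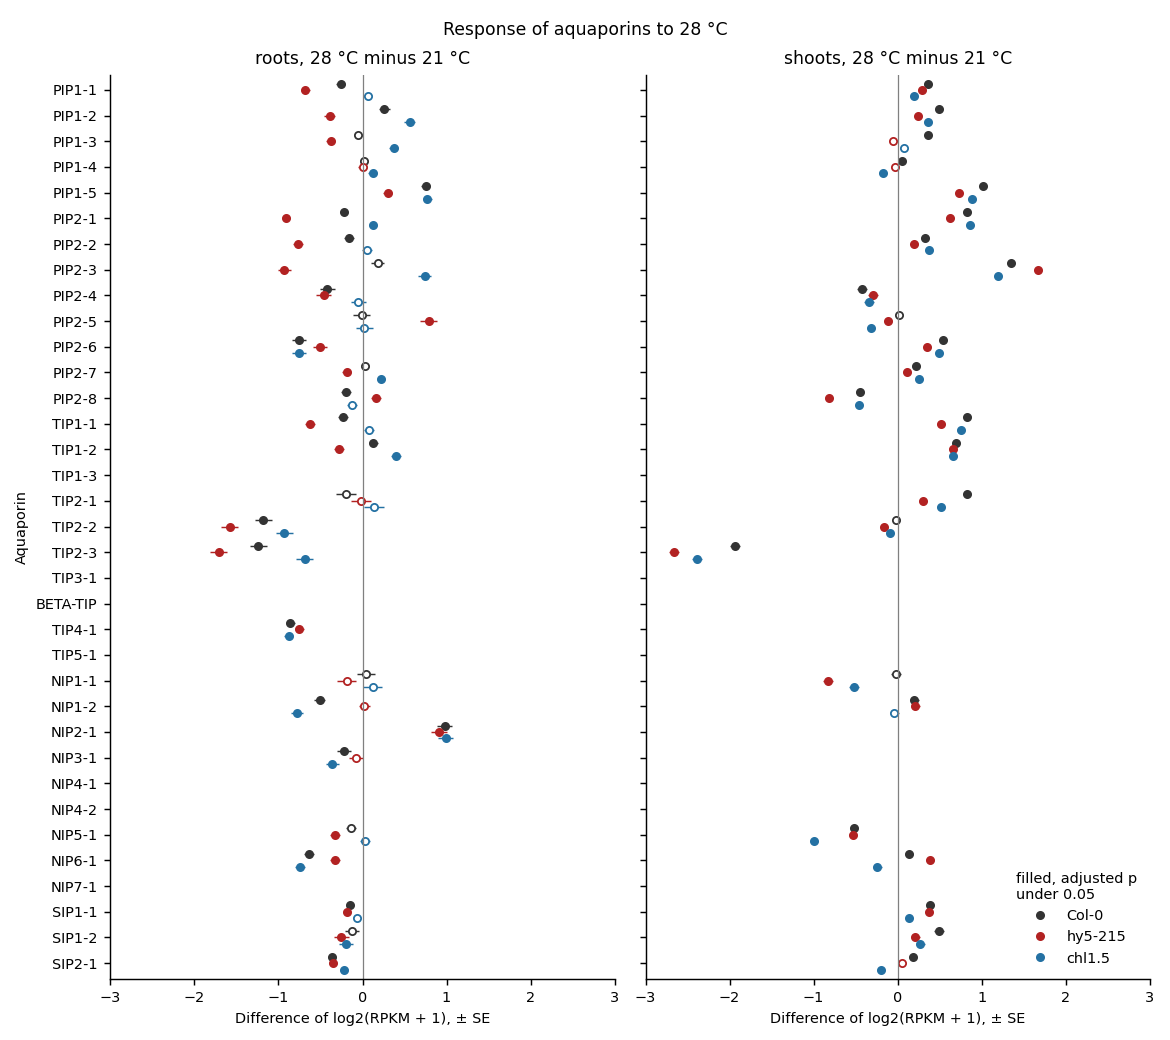
Difference of log2(RPKM + 1) between 28 °C and 21 °C (points, with standard error) for each tested aquaporin in roots (left) and shoots (right) of the 3 genotype labels. Points are filled where the limma adjusted p was under 0.05. TIP2-2 and TIP2-3 lie lowest in roots, PIP2-3 and PIP1-5 highest and TIP2-3 lowest in shoots, and rows without points did not pass the filter.

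Genes known to act on aquaporin proteins or transcripts were also measured. Of a list of 10 regulators of aquaporin trafficking, breakdown, gating and transcription, 9 were tested in each organ, and 3 rose and 3 fell with warmth in Col-0 roots, while 5 rose and 3 fell in Col-0 shoots. These shares lie near those of all genes given above, 37.0% and 29.2% in roots and 46.2% and 30.7% in shoots. In Col-0 roots the largest rise was that of HRA1, a transcription factor of the low oxygen response, by 0.58 ± 0.17 (limma adjusted p = 0.00658). Without replicate 2 at 28 °C it was 0.33, below the 0.46 of OST1, a kinase of abscisic acid signalling named here after its value was seen. The largest fall was that of AT3G02880, a receptor-like kinase gene, at -0.30 ± 0.048. In Col-0 shoots they were TSPO, which sends PIP2-7 to breakdown, at 1.27 ± 0.077 (limma adjusted p = 6.74e-11), and RMA1, a ubiquitin ligase of PIP2-1, at -0.60 ± 0.031 (limma adjusted p = 9.25e-12).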

How the data were processed

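RNA-seq was analysed from the single deposited matrix of RPKM, in which the authors gave reads per kilobase and per total for 24532 genes in 36 libraries. The submitters' processing notes name STAR 2.7.0a and edgeR 3.36.0, and the counting tool, its strand setting and its treatment of reads with several matches are not given in the sources used here. Multiplied by library totals and by gene spans of TAIR10.1, all 792223 values above 0 came out as whole reads within 0.01 reads (100%), so lengths include introns and totals are sums over genes. For 5 genes another length was needed, and 754 genes were at 0 throughout. Libraries of 51838841 to 89335791 reads put the floor of 3 reads on a gene of 1 kilobase at 0.0336 to 0.0579 RPKM, and intervals and floors cover counting error only.

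Group means of log2(RPKM + 1) were fitted with limma 3.58.1 in R 4.3.3, with variances moderated along the mean, for each organ over 18 libraries in 6 groups, or over all 36 for organ comparisons. Genes entered when they averaged 1 RPKM or more, Benjamini-Hochberg adjustment ran over all of them, and genes were called at an adjusted p under 0.05. The fits were tested on simulated data. Tables and figures were made with Python 3.11.15, numpy 2.4.6, pandas 2.3.3 and matplotlib 3.10.9. Alternatives were a pseudocount of 0.1, no filter, a filter at 5 RPKM, rescaling by the median of ratios, limma voom on the recovered reads, a replicate block, and leaving out each library. Deviations from group means correlated at over 0.1 in every same-numbered pair of libraries only in hy5-215 roots, so a block was also fitted there alone.

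The members and lists were chosen with earlier results of these data known. Values per library were to be given for the 3 highest members of each organ, for members changed by over 1 log2 unit in any warm response or mutant comparison, for members whose response differed between a mutant and Col-0, and for members with opposite responses in roots and shoots. In shoots many members met this rule, and those with small changes are given by ranges or not at all. Promoter and protein sequences were not used here, so the planned comparisons of promoter motifs and protein identity were not run.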

Additional observations from a re-analysis of the deposited data

Results flagged for a closer look

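The warm response of 14 aquaporins differed between hy5-215 and Col-0 in roots, by a test of the difference itself in limma. The differences over 0.5 log2 units in size were -0.65 for PIP1-2, -0.70 for PIP2-1, -0.61 for PIP2-2, -1.11 for PIP2-3, 0.81 for PIP2-5 and 0.53 for NIP1-2. In chl1.5 roots 4 members differed from Col-0, of which PIP2-3, at 0.56, was past that size. For PIP2-3 the hy5-215 value came with a level of 85 to 93.2 RPKM at 28 °C, and the chl1.5 value with one of 82 to 87.7 at 21 °C.

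In shoots labelled hy5-215 the response of 17 members differed from Col-0, with -0.53 for TIP2-1, -0.73 for TIP2-3 and -0.81 for NIP1-1, which passed the filter only through its libraries of hy5-215 at 21 °C. In shoots labelled chl1.5, which carried reads of NRT1.1, it differed for 16 members. The largest difference was -0.50 for NIP1-1, to which the same limit applies, and it was -0.50 in the fit without the filter too.

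Between roots and shoots of Col-0 the response differed for 21 members. The differences over 1 log2 unit were -1.04 for PIP2-1, -1.17 for PIP2-3, -1.31 for PIP2-6, -1.05 for TIP1-1, -1.03 for TIP2-1 and -1.16 for TIP2-2, all lower in roots. TIP2-1 did not pass the test of its warm response in roots.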

How the results depend on the processing

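Of 369 called differences of single members, 367 kept their direction and their call with a pseudocount of 0.1, 357 without a filter, 337 under the median of ratios, 367 with voom on the recovered reads and 365 with a replicate block. All 293 that could be tested with a filter at 5 RPKM kept both. The median of ratios turned 4 of them, PIP1-4 in the warm response of Col-0 shoots to -0.03, PIP1-2 between the organs to -0.20 at 21 °C and -0.38 at 28 °C, and PIP1-3 between the organs at 28 °C to -0.36. It also turned the ratios of summed RPKM to 0.989 for NIPs in shoots labelled hy5-215 and 0.937 for SIPs in those labelled chl1.5. The ratios for all aquaporins became 0.612 in hy5-215 roots, 1.04 in chl1.5 roots, 1.43 in Col-0 shoots, 1.20 in shoots labelled hy5-215 and 1.26 in those labelled chl1.5. The single member called in chl1.5 against Col-0 roots at 28 °C gave counts of 0 to 1 without 1 library, and 0 both under the median of ratios and with the replicate block. The count of 11 at 21 °C became 7 to 13 without 1 library. Over all fits without 1 library, 43 member differences lost their call at least once and none turned. The replicate block moved no other count of called members by over 1.5 times. The deviations of same-numbered libraries at 21 °C and 28 °C correlated at over 0.1 in all 3 pairs of hy5-215 roots (0.137 to 0.208), but not in all 3 pairs of any other genotype and organ (-0.274 to 0.479). A replicate block in hy5-215 roots alone, chosen after seeing the data, changed neither the call nor the direction of the 37 called member differences in their warm response and in its comparison with Col-0.

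Over all genes, the median of ratios moved the share of calls that were upward by over 10 points in the comparisons given here. It went from 59.8% to 48.7% for the warm response of hy5-215 roots, from 60.6% to 50.6% and from 63.7% to 52.1% for shoots labelled hy5-215 and chl1.5, from 58.6% to 46.4% for hy5-215 roots at 28 °C, from 58.6% to 48.4% and from 70.8% to 48.8% for chl1.5 roots at 21 °C and 28 °C, from 42.5% to 54.6% for shoots labelled chl1.5 at 21 °C, and from 73.0% to 49.2% and 73.1% to 50.2% between the organs. With a filter at 5 RPKM, where fewer genes were tested, the genes called in the warm responses of shoots became 8560, 8626 and 8584 in place of 12936, 12993 and 13166 (Col-0, hy5-215, chl1.5). Depth limits the members under 1 RPKM, where changes rest on few reads.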
